A study of Mus musculus with 15 samples.

Results

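The subject is a set of 329 long genes expressed in mouse liver, chosen by a rule with 2 thresholds. The distance from the first to the last annotated base, introns included, was 200 kb or more on 1 chromosome. The mean level in the HFD-NS libraries was 5 CPM (counts scaled to the library total) or more. Of the 26264 genes in the count table, 1251 reached the span at any level, and 6 genes that met both thresholds were left out by name. Because the HFD-NS libraries chose the members, comparisons with HFD-NS are given here as description only.

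Polyadenylated RNA, extracted with TRIzol, was sequenced from livers of mice in a diet model of steatotic liver disease (MASLD). The agents of the series are resmetirom, which activates thyroid hormone receptor beta, and Gc337, an antisense agent against STK25, a protein kinase. The labels give 5 groups of 3 libraries each, and values below follow this order of replicates. They are SD-NS (replicates 6, 7 and 8), HFD-NS (replicates 12, 13 and 16), HFD-338 (replicates 17, 18 and 19), HFD-337 (replicates 23, 26 and 27) and HFD-Res (replicates 29, 30 and 34). HFD stands for high-fat diet and Res for resmetirom, and HFD-337 carries the number of the agent Gc337. The labels used here spell out neither SD nor NS nor the number 338, name no strain, sex, age or dose, and name no group as the control of an agent. Nor do they say that each library is a separate animal, so p-values measure only the spread between these samples, which may be technical.

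A long gene is long because of its introns, which RNA polymerase II transcribes in full and which the spliceosome removes before the mature message leaves the nucleus. One round of transcription therefore takes longer in such a gene than in a short one, and elongation factors and topoisomerases are known to matter for its completion. In the liver, long genes encode enzymes of glycogen and nucleotide metabolism, guanine nucleotide exchange factors, cytoskeletal scaffolds, nuclear receptors and calcium release channels. Only reads in exons were counted here, so the intronic part of the span itself adds no counts.

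Libraries held 3873903 to 9797743 counts, and 13189 genes had enough counts to be tested, among them 329 of 329 members. The targeted gene Stk25 lay at 14.6 to 19.1 CPM in HFD-337 and 20.5 to 22.0 CPM in HFD-338, against 37.7 to 53.3 CPM in the libraries of the other groups. All 12 hepatocyte markers reached 1 CPM in each group, and their summed level was 96197 to 145055 CPM in HFD-337 and 83247 to 155259 CPM in the other 4 groups. Taken singly, 8 of these 12 markers fell and 2 rose in HFD-337 against SD-NS (median log2 fold change -0.54). Against HFD-Res 3 fell and 5 rose (-0.02), and against HFD-338 2 fell and 3 rose (-0.05). Summed levels of 12 sinusoidal endothelial markers were 121 to 149 CPM in HFD-337, 166 to 308 in HFD-338 and 330 to 541 in the rest. Those of 12 stellate cell and fibroblast markers were 240 to 385 CPM in HFD-337, 662 to 1133 in HFD-338 and 422 to 606 in the rest. Those of 12 Kupffer cell markers were 76.5 to 171 CPM in HFD-337, 222 to 626 in HFD-338, 145 to 262 in SD-NS, which overlapped HFD-337, and 217 to 300.2 in the rest. Bile duct markers summed to 91.3 to 270.1 CPM in HFD-337, 626 to 782 in HFD-338 and 65.6 to 109 in the rest. Those of 7 red blood cell markers were 199.7 to 844 CPM in HFD-337 and 125 to 371 in the other 4 groups. Of the 5 that were tested, 4 rose against HFD-Res, 2 against SD-NS and 1 against HFD-338, and 0 fell. No member is on a marker list, but the rule leaves out by name Reln, a stellate cell marker here, and Pkhd1, a bile duct marker here. In bulk tissue, fewer cells of a type and less RNA per cell cannot be told apart, and the part of cell composition in the results below was not tested.

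The members spanned 200 to 2271 kb with a median of 281 kb. There were 182 members under 300 kb, 52 at 500 kb or more and 9 at 1 Mb or more. Exons made up a median of 1.95% of the span, against 13.8% in 9257 shorter genes at the same level floor. The longest stretch without an exon had a median of 96.2 kb in the members and 6.37 kb in the shorter genes. The members also had more exonic sequence (median 6390 against 3054 bases) and more separate exon blocks (median 20 against 9). Their HFD-NS level was of a similar order, with a median of 19.5 CPM against 25.4 CPM. Chromosomes 2 and 1 held the most members, with 27 and 25. Raet1c (200.2 kb) and Raet1b (200.2 kb) lay just inside the span threshold, and Atp9b (199.9 kb) and Clec16a (199.5 kb) just outside. Dock10 (5.08 CPM) and Plekhg1 (5.16 CPM) lay just inside the level threshold, and Ccbe1 (4.96 CPM) and Pard3b (4.90 CPM) just outside.

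Start sites were available for 253 of the 329 members in a RefSeq table of build GRCm38.p6, an older build than the mm39 annotation of the counts. Promoters are shown for 5 genes whose levels the results turn on. Gbe1, Clybl and Agmo were low in HFD-337, Nfia was high there and Gabbr2 was low in HFD-338. Each line gives 250 bases before a start site, 5′ to 3′ on the gene's strand, and capitals mark the GC box GGGCGG or its reverse complement CCGCCC. The Gbe1 promoter is chr16:70313699-70313948 (+ strand), that of Clybl chr14:122181444-122181693 (+), that of Agmo chr12:37241389-37241638 (+), that of Gabbr2 chr4:46991715-46991964 (- strand) and that of Nfia chr4:97581693-97581942 (+).
Gbe1: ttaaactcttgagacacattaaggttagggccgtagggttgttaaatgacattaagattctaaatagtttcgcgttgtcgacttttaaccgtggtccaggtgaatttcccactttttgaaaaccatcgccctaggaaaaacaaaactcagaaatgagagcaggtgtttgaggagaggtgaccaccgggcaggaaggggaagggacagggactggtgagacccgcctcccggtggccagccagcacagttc
Clybl: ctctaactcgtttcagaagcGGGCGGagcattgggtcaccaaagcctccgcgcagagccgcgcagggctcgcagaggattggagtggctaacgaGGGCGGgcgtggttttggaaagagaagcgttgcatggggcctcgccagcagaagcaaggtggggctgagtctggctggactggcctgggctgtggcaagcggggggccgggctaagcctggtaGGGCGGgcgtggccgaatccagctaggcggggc
Agmo: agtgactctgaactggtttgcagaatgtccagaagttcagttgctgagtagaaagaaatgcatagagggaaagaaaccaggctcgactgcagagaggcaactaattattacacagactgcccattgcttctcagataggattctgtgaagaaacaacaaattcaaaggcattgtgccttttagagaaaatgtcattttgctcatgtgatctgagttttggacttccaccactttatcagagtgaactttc
Gabbr2: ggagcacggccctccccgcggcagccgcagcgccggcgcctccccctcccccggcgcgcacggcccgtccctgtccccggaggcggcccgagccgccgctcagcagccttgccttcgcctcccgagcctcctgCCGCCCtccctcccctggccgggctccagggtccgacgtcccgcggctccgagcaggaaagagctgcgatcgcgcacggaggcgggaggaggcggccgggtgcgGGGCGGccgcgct
Nfia: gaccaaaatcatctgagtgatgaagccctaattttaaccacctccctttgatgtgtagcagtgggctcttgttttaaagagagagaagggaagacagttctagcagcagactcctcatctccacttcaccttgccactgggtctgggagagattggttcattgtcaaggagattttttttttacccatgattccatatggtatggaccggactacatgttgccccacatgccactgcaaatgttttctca
The Clybl window held 3 GC boxes and the Gabbr2 window 2, while the windows of Gbe1, Agmo and Nfia held 0. GC content ran from 40.8% in Agmo to 80.8% in Gabbr2. Among 411 member promoters, 47.0% held a GC box on either strand, against 32.7% of all 32851 promoters in the table and 57.7% of 9487 promoters of shorter tested genes at the same level floor. A TATAAA motif on either strand was found in 7.30%, 12.4% and 6.64% of the same sets. Members that were lower in HFD-337 than in HFD-338 held a GC box in 47.9% of 192 promoters, and members that were higher in 40.4% of 47. A match describes the letters and is not evidence of a bound site.

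Member levels were lowest in HFD-337. Relative to the mean of the SD-NS libraries, the median member stood at -0.70, -0.57 and -0.64 in the HFD-337 libraries on the log2(CPM + 0.5) scale, using counts scaled by the trimmed mean of M-values (TMM). It stood at -0.38, -0.36 and -0.36 in HFD-338, at -0.13, -0.01 and -0.19 in HFD-Res and at -0.10, -0.04 and -0.09 in HFD-NS. The HFD-337 libraries were below every other library, and the HFD-338 libraries were below every library of SD-NS, HFD-NS and HFD-Res. Genes spanning under 10 kb went the other way in HFD-337, with medians of 0.36, 0.38 and 0.39. Members took 0.919%, 0.877% and 0.848% of all counts in HFD-337 and 1.09%, 1.12% and 1.13% in HFD-338, leaving out Mup2 and Mup15. They took 1.18% to 1.33% in the other 9 libraries.

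**Figure D1:**
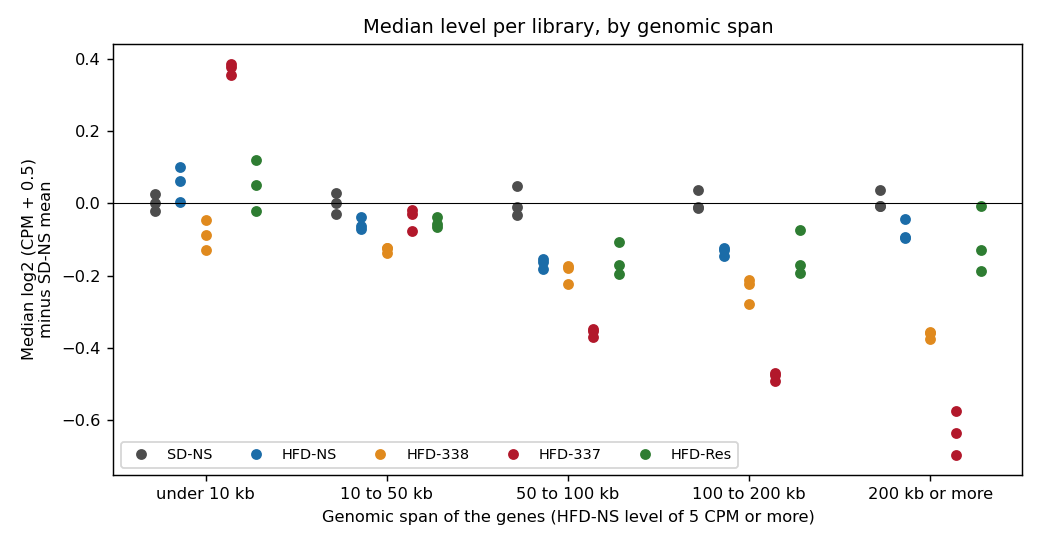
Median of log2(CPM + 0.5) minus the SD-NS mean, in log2 units (y axis), by class of gene span (x axis), with 1 point per library coloured by group. The class of 200 kb or more lies at -0.70 to -0.57 in the 3 HFD-337 libraries, while the class under 10 kb lies at 0.36 to 0.39 there.

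**Figure D2:**
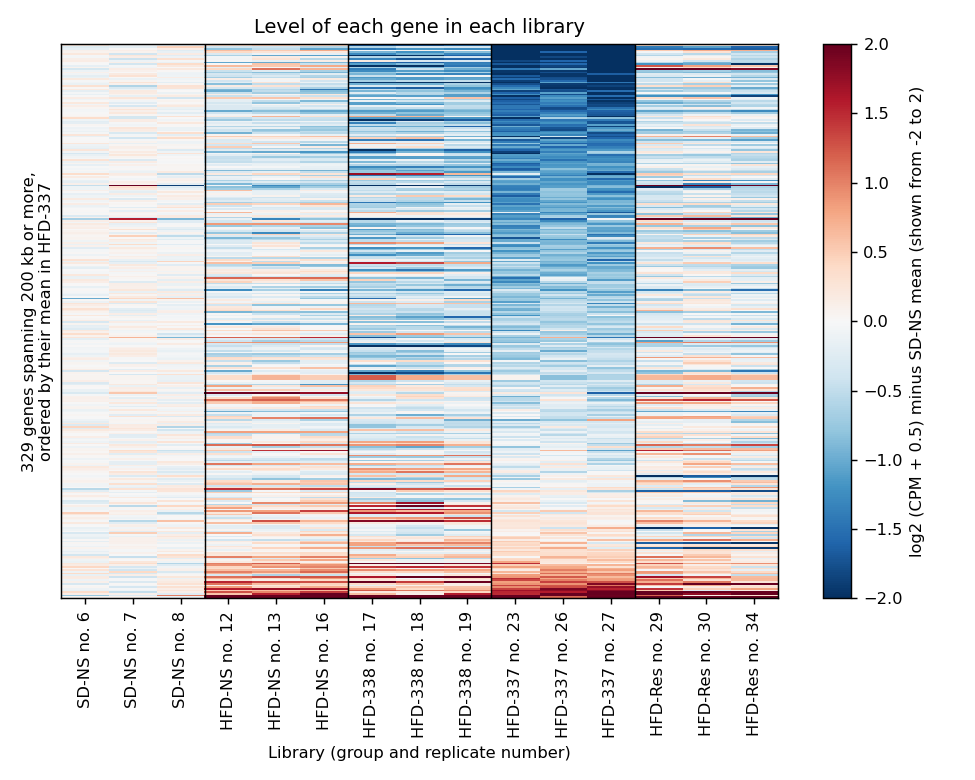
Level of each of the 329 members (rows, ordered by their HFD-337 mean) in each of the 15 libraries (columns, by group and replicate number), as log2(CPM + 0.5) minus the SD-NS mean, with colours limited to -2 and 2. The HFD-337 columns are below 0 for most rows, HFD-338 shares part of that pattern, and HFD-NS and HFD-Res are near 0 for most rows.

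HFD-337 could be set against 3 groups that the rule did not use. The members were chosen, however, with the knowledge that long genes were lower in HFD-337 in these data. An excess of falls was therefore known in advance, and the counts describe its size. These 3 comparisons share the HFD-337 libraries and are not independent of each other. Against HFD-Res, 185 members (56.2%) fell and 23 (6.99%) rose at an adjusted p under 0.05, where 23.3% of all genes tested fell and 24.3% rose. The median log2 fold change was -0.54 in the members and 0.03 in all genes. Against SD-NS, 194 members (59.0%) fell and 24 (7.29%) rose, where 27.1% of all genes fell and 28.1% rose, with medians of -0.61 and 0.05. Against HFD-338, 148 members (45.0%) fell and 42 (12.8%) rose, where 29.6% of all genes fell and 28.8% rose, with medians of -0.32 and -0.00.

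Falls of at least 2-fold showed how the comparisons differed in size. Against HFD-Res, 84 members (25.5%) fell at least 2-fold, where 8.19% of all genes did, and 9 rose (8.75% of all genes). Against SD-NS, 107 (32.5%) fell at least 2-fold, where 10.3% of all genes did, and 13 rose (12.6% of all genes). Against HFD-338, 57 (17.3%) fell at least 2-fold, a share close to the 15.1% of all genes, and 7 rose (8.53% of all genes). Against HFD-338, the gap between members and all genes tested was thus wider for falls of any size than for falls of at least 2-fold. All genes tested include genes below the level floor of the members. Among genes at that floor, 5.59% spanning under 10 kb and 6.27% at 10 to 50 kb fell at least 2-fold against HFD-338. The shares were 10.2% at 50 to 100 kb and 14.9% at 100 to 200 kb, below the 17.3% of the members.

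The split of calls moved with the scaling of the libraries, most of all against HFD-338. There, 77.9% of called members were lower, against 50.7% of all called genes. With scaling to total counts these shares were 85.7% and 61.0%, and on TPM recomputed from the counts 92.6% and 71.1%. Those settings shifted the median of all genes by -0.14 and -0.23 on the log2 scale, and the members stood 0.31 and 0.24 below that median, as against 0.32 with TMM scaling. Against HFD-Res, 88.9% of called members and 49.0% of all called genes were lower, and on recomputed TPM 93.7% and 60.8%. Against SD-NS, the shares were 89.0% and 49.1%, and with total count scaling they were 80.6% and 37.0%. That scaling put the median of all genes at 0.23, in place of 0.05 with TMM scaling.

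The share of genes that fell grew with span in steps. Against HFD-Res, 13.4% of 2416 genes spanning under 10 kb fell, 26.4% of 4706 at 10 to 50 kb, 39.9% of 1375 at 50 to 100 kb, 46.3% of 760 at 100 to 200 kb and 56.2% of the members. The medians followed the same order, at 0.31, 0.00, -0.23, -0.34 and -0.54. Against SD-NS the medians were 0.39, -0.04, -0.36, -0.48 and -0.61. Against HFD-338 they were 0.45, 0.06, -0.20, -0.27 and -0.32, and the last 2 classes fell at nearly the same rate (44.9% and 45.0%). Among the members themselves, Spearman's correlation between span and log2 fold change was -0.22 against HFD-Res, -0.17 against SD-NS and -0.03 against HFD-338 (n = 329 genes, a description across genes that share libraries). Split into terciles of span, 46.4%, 57.8% and 64.5% of members fell against HFD-Res, 47.3%, 70.6% and 59.1% against SD-NS, and 41.8%, 50.5% and 42.7% against HFD-338. The share grew at both steps only against HFD-Res. Exon length had a correlation of 0.12, 0.01 and -0.02 in the same order of groups.

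**Figure D3:**
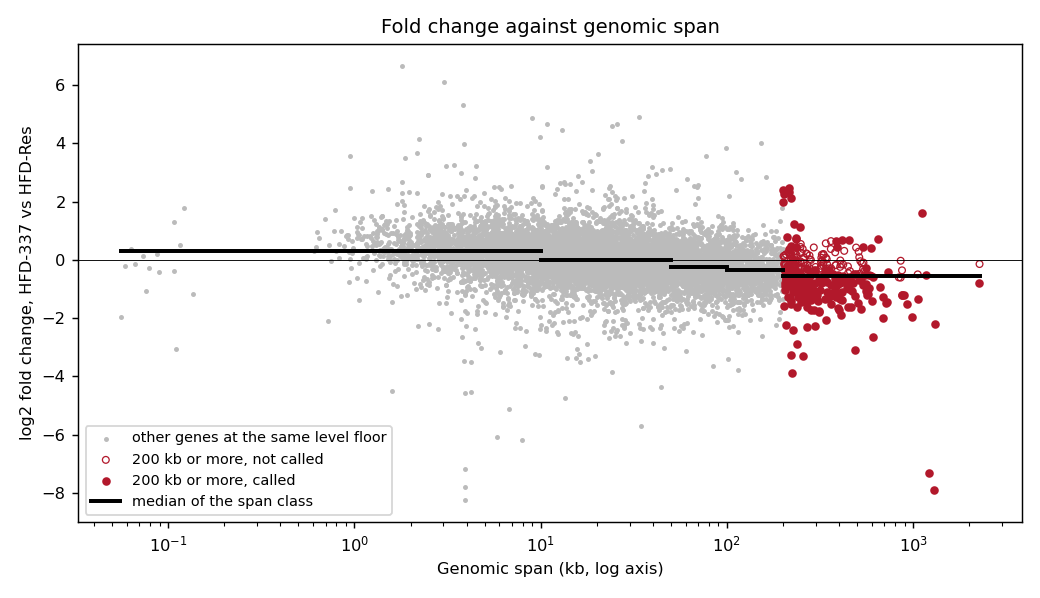
Log2 fold change of HFD-337 against HFD-Res (y axis) by gene span in kb (x axis, log scale), with 1 point per gene and the median of each span class. The class medians go from 0.31 under 10 kb to -0.54 at 200 kb or more.

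In 98 members (29.8%), the 3 HFD-337 libraries were below all 9 libraries of HFD-338, HFD-Res and SD-NS, which was so for 13% of all genes tested. In 9 members (2.74%) they were above all 9, against 16% of all genes. By class of span from short to long, the share below all 9 was 5.42%, 15.4%, 26.8%, 27.9% and 29.8%, and the share above all 9 was 34.6%, 16.5%, 8.22%, 3.82% and 2.74%. Of the members, 229 were placed on 1 of 13 lists of known function, and 100 are on none. The counts of each list below stand beside the shares of all genes that fell, which were 29.6% against HFD-338, 23.3% against HFD-Res and 27.1% against SD-NS. Over all members, from which the lists were drawn, 45.0%, 56.2% and 59.0% fell in the same order of groups. Genes below all 9 were found on each list, from 11 of 23 metabolic enzymes and 8 of 21 membrane traffic genes to 1 of 7 channels and transporters.

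Against HFD-Res, 18 of the 23 metabolic and mitochondrial enzymes fell and 0 rose (median log2 fold change -0.77). Against SD-NS 17 fell and 2 rose (-0.63), and against HFD-338 11 fell and 2 rose (-0.31). Gbe1, the branching enzyme that adds side chains to growing glycogen (chromosome 16, 70110837 to 70366608 in mm39), had the largest fall against HFD-338 among the members. Its levels were 94.4, 96.8 and 74.3 CPM in SD-NS, 135, 127 and 149 in HFD-NS, 127, 148 and 146 in HFD-Res, 85.4, 92.8 and 91.2 in HFD-338 and 12.6, 17.1 and 12.6 in HFD-337. The HFD-337 libraries were far below all others, with no overlap. Gbe1 fell by 2.65 on the log2 scale (SE 0.13, adjusted p = 2.65e-10) against HFD-338 and was 9.96-fold lower than in HFD-Res (SE of the log2 value 0.13, adjusted p = 3.52e-12). Phkb, a regulatory subunit of the kinase that starts glycogen breakdown, had 17.9, 19.7 and 15.6 CPM in HFD-337 and 27.4, 27.8 and 30.5 in HFD-338. Phkb fell by 0.67 on the log2 scale (SE 0.13, adjusted p = 0.000175) against HFD-338. Fut8, the fucosyltransferase that adds core fucose to N-glycans, had 1.97, 1.15 and 1.42 CPM in HFD-337 and 4.90, 5.81 and 3.53 in HFD-338. Fut8 fell by 1.69 on the log2 scale (SE 0.30, adjusted p = 0.000106), or by 1.08 on the log2(TPM + 1) scale with TPM recomputed from the counts.

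Clybl, a mitochondrial lyase of citramalyl-CoA (chromosome 14, 122419106 to 122639646), had 39.0, 32.1 and 29.8 CPM in SD-NS, 43.7, 47.7 and 45.1 in HFD-NS and 44.1, 37.3 and 38.5 in HFD-Res. It had 9.92, 10.1 and 11.6 CPM in HFD-338 and 5.12, 5.07 and 1.83 in HFD-337. Both of these groups were below the rest without overlap, and HFD-337 was the lower of the pair. Clybl fell by 1.34 on the log2 scale (SE 0.22, adjusted p = 5.16e-05) against HFD-338 and fell by 3.26 on the log2 scale (SE 0.20, adjusted p = 8.82e-10) against HFD-Res. Agmo, the alkylglycerol monooxygenase that cleaves ether lipids (chromosome 12, 37291638 to 37631931), had 16.1, 24.8 and 16.03 CPM in HFD-337, 59.6, 59.9 and 68.2 in HFD-338 and 85.0, 92.9 and 66.1 in HFD-Res. Agmo fell by 1.69 on the log2 scale (SE 0.15, adjusted p = 1.29e-07) against HFD-338. Pcca, the alpha subunit of mitochondrial propionyl-CoA carboxylase, had 72.2, 72.9 and 65.5 CPM in HFD-Res against 20.1, 30.9 and 31.1 in HFD-337, and fell by 1.35 on the log2 scale (SE 0.17, adjusted p = 5.23e-06) against HFD-Res.

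Suclg2, a subunit of succinyl-CoA synthetase, had 212, 204 and 186 CPM in HFD-Res against 142, 158 and 128 in HFD-337, and fell by 0.49 on the log2 scale (SE 0.10, adjusted p = 0.000515). Adk, adenosine kinase, is among the members of highest level, with 517, 615 and 528 CPM in HFD-337, 528, 499 and 636 in HFD-338 and 864, 757 and 789 in HFD-Res. Its HFD-337 and HFD-338 values overlapped (a log2 change of -0.00 with SE 0.11 and adjusted p = 0.988), and Adk fell by 0.54 on the log2 scale (SE 0.11, adjusted p = 0.00058) against HFD-Res. Dpyd, which starts the breakdown of uracil and thymine, had 651, 645 and 663 CPM in SD-NS and 203, 317 and 274 in HFD-337. Dpyd was 2.47-fold lower than in SD-NS (SE of the log2 value 0.16, adjusted p = 1.54e-06) but did not pass the test against HFD-Res (adjusted p = 0.0633) or HFD-338 (adjusted p = 0.686). St3gal3, a sialyltransferase of the Golgi, stood higher in HFD-337 (59.5, 51.5 and 51.8 CPM) than in HFD-338 (31.8, 31.2 and 29.97 CPM). St3gal3 rose by 0.81 on the log2 scale (SE 0.11, adjusted p = 9.19e-06), while its HFD-Res values of 57.6, 57.5 and 63.5 CPM overlapped those of HFD-337.

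Second messenger genes carry signals from receptors to calcium and cyclic AMP inside the cell. Of 10 such members, 7 fell and 0 rose against HFD-Res (median -1.13), 7 fell and 1 rose against SD-NS (-1.15), and 4 fell and 2 rose against HFD-338 (-0.48). Gnaq, the G protein alpha subunit that activates phospholipase C beta, had 16.5, 18.4 and 16.4 CPM in HFD-337. The other groups had 44.3, 46.1 and 40.8 CPM (SD-NS), 36.0, 32.9 and 29.6 (HFD-NS), 36.5, 38.3 and 35.2 (HFD-338) and 32.8, 36.1 and 35.5 (HFD-Res), all above HFD-337. Gnaq fell by 1.09 on the log2 scale (SE 0.11, adjusted p = 1.8e-07) against HFD-338 and fell by 1.01 on the log2 scale (SE 0.11, adjusted p = 6.23e-07) against HFD-Res. Plcb1, a phospholipase C beta, had 4.92, 5.07 and 4.26 CPM in HFD-337, 5.02, 5.81 and 8.25 in HFD-338 and 17.3, 23.2 and 17.7 in HFD-Res. Plcb1 fell by 2.01 on the log2 scale (SE 0.21, adjusted p = 4.9e-07) against HFD-Res, and its difference from HFD-338 did not pass (adjusted p = 0.148).

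Plce1, a phospholipase C that responds to Ras proteins, had 6.10, 5.76 and 4.26 CPM in HFD-337 and 9.92, 12.6 and 9.55 in HFD-338, and fell by 0.98 on the log2 scale (SE 0.20, adjusted p = 0.000359). Pde4d, a phosphodiesterase that breaks down cyclic AMP and spans 1302 kb, had 1.58, 2.19 and 1.42 CPM in HFD-337, 4.45, 5.57 and 4.32 in HFD-338 and 8.56, 7.59 and 8.57 in HFD-Res. It fell by 1.40 on the log2 scale (SE 0.26, adjusted p = 0.000163) against HFD-338, or by 0.78 on the recomputed log2(TPM + 1) scale, which shrinks changes of low genes. Itpr1, an inositol trisphosphate receptor that releases calcium, was low in HFD-338 (15.5, 19.4 and 22.2 CPM) and HFD-337 (25.01, 26.2 and 26.6 CPM) and higher in HFD-Res (68.7, 72.5 and 59.1 CPM). Itpr1 fell by 1.36 on the log2 scale (SE 0.13, adjusted p = 1.06e-07) against HFD-Res. Rcan2, an inhibitor of calcineurin, had 41.7, 50.1 and 34.4 CPM in HFD-Res, 5.02, 3.96 and 6.28 in HFD-338 and 6.89, 7.38 and 1.62 in HFD-337. Rcan2 fell by 2.90 on the log2 scale (SE 0.36, adjusted p = 2.51e-05) against HFD-Res and did not pass against HFD-338 (adjusted p = 0.8). Relative to the SD-NS mean, on the log2(CPM + 0.5) scale, Rcan2 stood at 2.69, 2.96 and 2.42 in HFD-Res. In HFD-337 it stood at 0.18, 0.27 and -1.62, which overlapped SD-NS.

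Regulators of small GTPases, the switches that steer actin, vesicles and adhesion, were the largest list. Of 34 members, 22 fell and 0 rose against HFD-Res (median -0.58), 22 fell and 2 rose against SD-NS (-0.90), and 14 fell and 3 rose against HFD-338 (-0.26). Iqgap2, a scaffold that binds Rac and Cdc42 and is abundant in liver, had 133, 186 and 144 CPM in HFD-337, 243, 278 and 303 in HFD-338 and 429, 451 and 401 in HFD-Res. The 3 groups did not overlap, and Iqgap2 fell by 0.83 on the log2 scale (SE 0.12, adjusted p = 1.05e-05) against HFD-338 and fell by 1.46 on the log2 scale (SE 0.12, adjusted p = 2.28e-08) against HFD-Res. Dock8, an exchange factor for Cdc42 known from immune cells, had 10.6, 8.18 and 10.1 CPM in HFD-337 and 20.2, 21.4 and 20.4 in HFD-338. Dock8 fell by 1.12 on the log2 scale (SE 0.13, adjusted p = 1.54e-06). Dock1, an exchange factor for Rac in cell migration and engulfment, had 5.12, 5.88 and 8.12 CPM in HFD-337 and 12.3, 11.9 and 12.6 in HFD-338. Dock1 fell by 0.96 on the log2 scale (SE 0.17, adjusted p = 9.54e-05).

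Prex2, a Rac exchange factor, had 2.36, 2.88 and 0.812 CPM in HFD-337 and 10.9, 7.79 and 7.59 in HFD-338, and fell by 2.03 on the log2 scale (SE 0.28, adjusted p = 8.14e-06), or by 1.02 on the recomputed log2(TPM + 1) scale. Rapgef4, an exchange factor for Rap that cyclic AMP activates, had 361, 328 and 368 CPM in HFD-Res and 84.5, 120.0 and 199 in HFD-337. Rapgef4 fell by 1.39 on the log2 scale (SE 0.23, adjusted p = 0.000302) against HFD-Res. Per library and relative to the SD-NS mean, its log2 level stood at -1.87, -1.37 and -0.64 in HFD-337. HFD-338 (-1.40, -0.93 and -1.19) and HFD-NS (-0.91, -1.02 and -1.16) both overlapped HFD-337. HFD-Res stood higher, at 0.21, 0.08 and 0.24, and overlapped SD-NS. Arhgap26, a GTPase-activating protein, went against most of its list except in the comparison with HFD-Res. It had 25.2, 26.7 and 41.0 CPM in HFD-337 and 9.92, 9.90 and 11.6 in HFD-338. Arhgap26 rose by 1.55 on the log2 scale (SE 0.21, adjusted p = 1.4e-05) against HFD-338 and rose by 1.78 on the log2 scale (SE 0.23, adjusted p = 5.46e-06) against SD-NS. Its HFD-Res values, 38.5, 43.5 and 54.9 CPM, were mostly higher but overlapped those of HFD-337. The fall against HFD-Res was called, and that call was lost under 3 of 13 alternatives. Arhgap6, another GTPase-activating protein, had 5.51, 10.3 and 9.74 CPM in HFD-337 and 4.22, 4.21 and 4.19 in HFD-338, and rose by 1.03 on the log2 scale (SE 0.24, adjusted p = 0.0013).

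**Figure D4:**
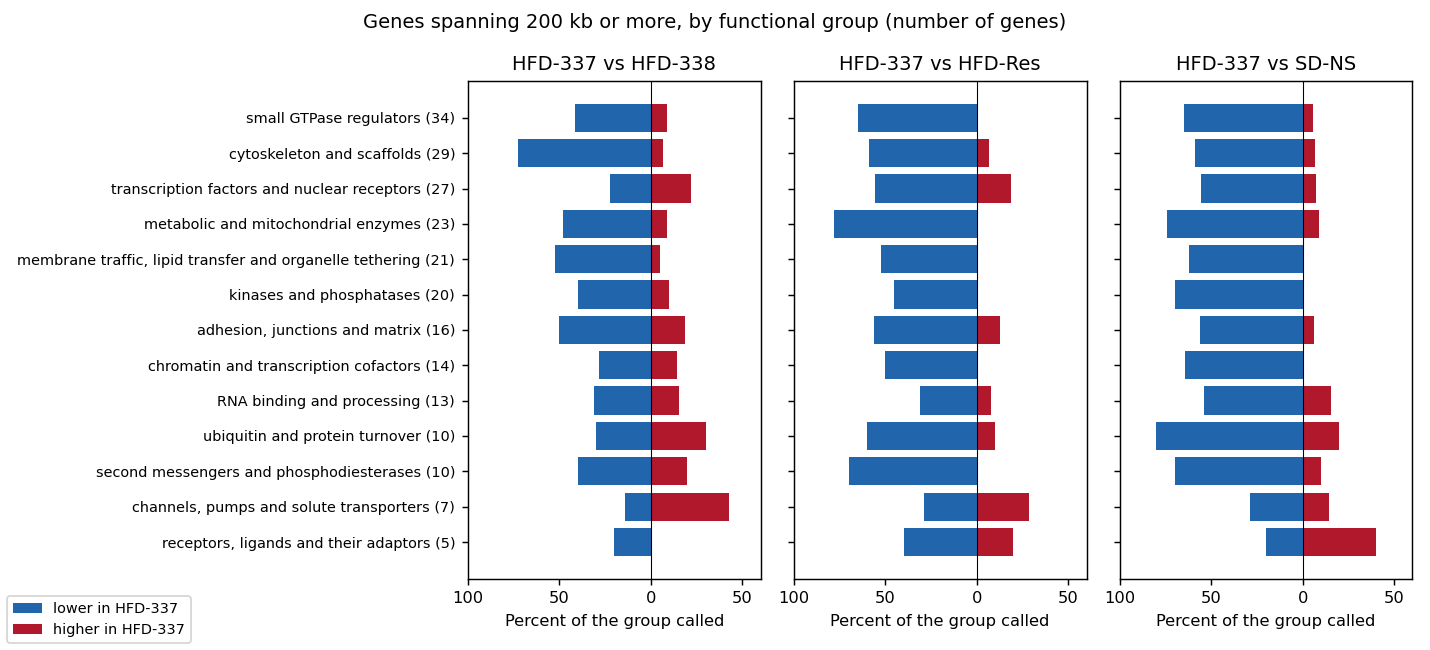
Percent of the members of each functional list (rows, with their number) that fell or rose in HFD-337 against HFD-338, HFD-Res and SD-NS at an adjusted p under 0.05. The second messenger and metabolic lists have 7 of 10 and 18 of 23 members lower than in HFD-Res, and 0 members of either list were higher there.

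Cytoskeletal and scaffold genes were the list with the highest share of falls against HFD-338. Of 29 members, 21 fell and 2 rose there (median -0.57), and 17 fell and 2 rose both against HFD-Res (-0.53) and against SD-NS (-0.55). Sntb1, a syntrophin of the dystrophin complex (chromosome 15, 55502550 to 55770345), had 26.8, 27.6 and 43.3 CPM in SD-NS, 11.8, 14.7 and 10.2 in HFD-Res, 20.8, 24.99 and 24.2 in HFD-338 and 3.35, 4.50 and 3.45 in HFD-337. HFD-337 was below all of them, HFD-Res came next, and the groups did not overlap. Sntb1 fell by 2.58 on the log2 scale (SE 0.21, adjusted p = 2.9e-08) against HFD-338 and fell by 1.63 on the log2 scale (SE 0.23, adjusted p = 1.38e-05) against HFD-Res. Myo1d, a class I myosin, had 1.38, 3.80 and 1.22 CPM in HFD-337, 6.38, 5.20 and 6.67 in HFD-338 and 11.99, 15.4 and 7.70 in HFD-Res. It fell by 2.26 on the log2 scale (SE 0.32, adjusted p = 1.26e-05) against HFD-Res, and by 3.12 without replicate 26 of HFD-337. Against HFD-338 its change was -1.35, or -2.21 without that library. Phactr2, a regulator of protein phosphatase and actin, had 16.4, 14.8 and 10.2 CPM in HFD-338 and 5.91, 4.15 and 2.84 in HFD-337, and fell by 1.69 on the log2 scale (SE 0.29, adjusted p = 7.7e-05). HFD-338 had its highest mean, and its HFD-337 values overlapped those of HFD-Res (9.63, 10.8 and 5.52 CPM). Phactr2 was also called lower than in HFD-Res, a call lost under 4 of 13 alternatives.

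Myo5b, a motor for recycling endosomes and bile canaliculi, had 14.8, 16.02 and 9.54 CPM in HFD-337 and 23.4, 25.7 and 24.6 in HFD-338, and fell by 0.84 on the log2 scale (SE 0.17, adjusted p = 0.000393). Dmd, which encodes dystrophin, spans 2256 kb and is the second longest member. Its levels were 31.1, 25.8 and 28.2 CPM in HFD-337, 49.0, 56.1 and 42.9 in HFD-Res, 40.7, 38.7 and 41.1 in HFD-338 and 31.4, 30.9 and 27.000 in SD-NS. Dmd fell by 0.51 on the log2 scale (SE 0.12, adjusted p = 0.00151) against HFD-338 and fell by 0.80 on the log2 scale (SE 0.12, adjusted p = 3.08e-05) against HFD-Res, while its HFD-337 values overlapped those of SD-NS (adjusted p = 0.593). Frmd4a, a scaffold of epithelial polarity, and Filip1l, a filamin-binding protein, were highest in HFD-338. Frmd4a had 3.86, 2.53 and 6.19 CPM in SD-NS, 8.35, 6.67 and 5.23 in HFD-Res, 15.3, 15.3 and 12.04 in HFD-338 and 4.92, 4.73 and 3.86 in HFD-337. Frmd4a fell by 1.65 on the log2 scale (SE 0.29, adjusted p = 0.000124) against HFD-338. Its HFD-337 libraries overlapped those of SD-NS (adjusted p = 0.7) and were all below those of HFD-Res, without passing the test there (adjusted p = 0.177). Filip1l had 5.86, 3.50 and 7.31 CPM in SD-NS, 7.07, 7.59 and 6.97 in HFD-Res, 16.2, 22.4 and 15.6 in HFD-338 and 6.10, 4.50 and 7.10 in HFD-337. Filip1l fell by 1.65 on the log2 scale (SE 0.22, adjusted p = 4.68e-06) against HFD-338, and its HFD-337 values overlapped those of SD-NS and HFD-Res. The summed stellate cell and bile duct markers were also highest in HFD-338, as given above, and their part in these values was not tested.

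Nav2, a neuron navigator that acts on microtubules and spans 651 kb, was a clear exception among the scaffolds. Its levels were 45.7, 44.1 and 47.3 CPM in SD-NS, 49.3, 53.0 and 59.0 in HFD-NS, 66.4, 75.7 and 54.2 in HFD-Res, 40.0, 48.2 and 49.9 in HFD-338 and 117, 110.0 and 96.2 in HFD-337. Every HFD-337 library was above every other library. Nav2 rose by 1.23 on the log2 scale (SE 0.12, adjusted p = 1.62e-07) against HFD-338, rose by 0.73 on the log2 scale (SE 0.12, adjusted p = 6.13e-05) against HFD-Res and rose by 1.24 on the log2 scale (SE 0.12, adjusted p = 9.47e-08) against SD-NS.

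Of 16 adhesion, junction and matrix members, 9 fell and 2 rose against HFD-Res (median -0.54), 9 fell and 1 rose against SD-NS (-0.61), and 8 fell and 3 rose against HFD-338 (-0.43). Lpp, a LIM protein of focal adhesions, had 24.4, 30.8 and 18.9 CPM in HFD-337, 68.9, 80.7 and 52.7 in HFD-Res, 57.8, 63.5 and 65.0 in HFD-338 and 90.4, 95.1 and 88.9 in SD-NS. HFD-337 was below all of them, and Lpp fell by 1.31 on the log2 scale (SE 0.16, adjusted p = 4.5e-06) against HFD-338 and fell by 1.42 on the log2 scale (SE 0.16, adjusted p = 2.53e-06) against HFD-Res. Itga9, the integrin alpha 9 chain, had 4.33, 3.57 and 2.03 CPM in HFD-337 and 16.6, 15.5 and 9.95 in HFD-338, and fell by 2.06 on the log2 scale (SE 0.26, adjusted p = 2.96e-06). Robo1, a receptor for Slit ligands, was high in HFD-338 (24.2, 15.96 and 17.4 CPM) and HFD-NS (18.7, 14.3 and 17.1 CPM). Robo1 fell by 1.59 on the log2 scale (SE 0.24, adjusted p = 2.2e-05) against HFD-338, but its HFD-337 values of 6.10, 5.65 and 7.71 CPM overlapped those of HFD-Res (4.71, 8.97 and 7.99 CPM). Cdh2, N-cadherin, which joins hepatocytes to each other, had 120.3, 116 and 123 CPM in HFD-337 and 83.0, 80.9 and 81.3 in HFD-338, and rose by 0.55 on the log2 scale (SE 0.08, adjusted p = 1.36e-05). Mcc, named for its mutation in colorectal cancers, had 31.1, 45.5 and 35.9 CPM in HFD-337 and 24.7, 20.2 and 29.6 in HFD-338, and rose by 0.61 on the log2 scale (SE 0.24, adjusted p = 0.0424). This call was lost under 8 of 13 alternatives, among them leaving out replicate 26 or 27 of HFD-337 or replicate 17 or 18 of HFD-338, and the change was 0.28 on recomputed TPM. Mcc shares 6.75% of its exon length with A930012L18Rik. Summed stellate, Kupffer and bile duct markers were lower in HFD-337 than in HFD-338 as well.

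Membrane traffic genes mostly fell, and none of the 21 rose against HFD-Res or SD-NS. The 52.4% that fell against HFD-Res was below the 56.2% of all members. Of these members, 11 fell against HFD-Res (median -0.42), 13 fell against SD-NS (-0.63), and 11 fell and 1 rose against HFD-338 (-0.48). Cog5, a subunit of the Golgi tethering complex COG, had 3.94, 3.23 and 2.64 CPM in HFD-337, 10.03, 12.7 and 13.2 in HFD-338 and 10.9, 12.4 and 9.15 in HFD-Res. HFD-337 did not overlap with either, and Cog5 fell by 1.87 on the log2 scale (SE 0.21, adjusted p = 1e-06) against HFD-338 and fell by 1.71 on the log2 scale (SE 0.22, adjusted p = 5.47e-06) against HFD-Res. Exoc6b, a subunit of the exocyst, which tethers vesicles to the plasma membrane, had 4.13, 4.03 and 3.04 CPM in HFD-337 and 7.64, 9.77 and 7.07 in HFD-338. Exoc6b fell by 1.11 on the log2 scale (SE 0.21, adjusted p = 0.000177). Vti1a, a SNARE protein of vesicle fusion, had 3.35, 2.88 and 1.62 CPM in HFD-337, 5.13, 4.70 and 4.97 in HFD-338 and 8.14, 10.6 and 8.72 in HFD-Res. Vti1a fell by 1.77 on the log2 scale (SE 0.23, adjusted p = 4.19e-06) against HFD-Res. Tmem135, a membrane protein linked to peroxisomes and mitochondria, had 88.6, 83.0 and 80.0 CPM in HFD-337, 144, 141 and 135 in HFD-Res, 93.4, 94.0 and 94.6 in HFD-338 and 190.4, 207 and 200.3 in SD-NS. It fell by 0.74 on the log2 scale (SE 0.09, adjusted p = 2.09e-06) against HFD-Res and did not pass against HFD-338 (adjusted p = 0.116). Mctp2, a membrane protein with C2 domains, was the member of this list that rose against HFD-338. It had 3.88, 5.44 and 6.94 CPM in HFD-338 and 13.2, 14.1 and 15.6 in HFD-337, and rose by 1.41 on the log2 scale (SE 0.23, adjusted p = 6.94e-05), with HFD-338 the low group.

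Among 20 kinases and phosphatases, 9 fell and 0 rose against HFD-Res (median -0.36), 14 fell and 0 rose against SD-NS (-0.87), and 8 fell and 2 rose against HFD-338 (-0.16). Ptprg, a receptor tyrosine phosphatase, had 12.4, 11.4 and 10.96 CPM in HFD-337, 30.2, 27.6 and 26.6 in HFD-Res, 22.004, 22.3 and 27.7 in HFD-338 and 40.1, 46.7 and 45.0 in SD-NS. HFD-337 was below all of them without overlap, and Ptprg fell by 1.05 on the log2 scale (SE 0.14, adjusted p = 4.66e-06) against HFD-338 and fell by 1.92 on the log2 scale (SE 0.14, adjusted p = 1.83e-09) against SD-NS. Ptprd, another receptor tyrosine phosphatase, is the longest member (2271 kb) and passed none of the 3 tests. It had 169.7, 185 and 167 CPM in HFD-337, 183, 224 and 171 in HFD-Res, 158, 162 and 187 in HFD-338 and 199, 217 and 201 in SD-NS. Its log2 fold changes were 0.04, -0.14 and -0.24 against HFD-338, HFD-Res and SD-NS, with an SE of 0.10 and adjusted p-values of 0.733, 0.269 and 0.0593. Fer, a cytoplasmic tyrosine kinase, had 1.77, 3.92 and 4.87 CPM in HFD-337 and 4.90, 8.78 and 6.15 in HFD-338, and fell by 0.89 on the log2 scale (SE 0.33, adjusted p = 0.0294). The groups nearly touched, and this call was lost under 5 of 13 alternatives, among them leaving out replicate 23 or 26 of HFD-337 or replicate 18 of HFD-338. Prkce, protein kinase C epsilon, had 11.5, 9.77 and 6.81 CPM in HFD-338, its lowest group, against 15.8, 13.8 and 11.8 CPM in HFD-337 and 17.8, 20.7 and 19.8 CPM in HFD-Res. Prkce rose by 0.55 on the log2 scale (SE 0.16, adjusted p = 0.00789) against HFD-338 and fell by 0.49 on the log2 scale (SE 0.16, adjusted p = 0.0165) against HFD-Res. The rise was not called on recomputed TPM (0.23), with total count scaling or without replicate 19 of HFD-338 (0.36), and the fall was not called without replicate 27 of HFD-337 or replicate 30 of HFD-Res. Ppp3ca, the catalytic subunit of calcineurin, stood higher in every HFD-337 library (102, 98.9 and 97.8 CPM) than in any of HFD-338 (82.1, 68.8 and 84.2 CPM). Ppp3ca rose by 0.34 on the log2 scale (SE 0.10, adjusted p = 0.00565) against HFD-338. This call was lost without replicate 18 of HFD-338, on recomputed TPM and with total count scaling.

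Transcription factors and nuclear receptors gave different counts in the 3 comparisons. Of 27 members, 15 fell against HFD-Res with 5 rises (median -0.59) and 15 against SD-NS with 2 rises (-0.55), whereas 6 fell and 6 rose against HFD-338 (0.04), where the share that fell (22.2%) was below that of all genes. Tead1, a factor of the Hippo pathway, had 7.88, 10.7 and 6.09 CPM in HFD-337, 14.8, 16.8 and 17.4 in HFD-Res, 23.4, 19.5 and 21.5 in HFD-338 and 25.3, 24.5 and 26.7 in SD-NS. HFD-337 was below all of them, and Tead1 fell by 1.34 on the log2 scale (SE 0.19, adjusted p = 1.03e-05) against HFD-338. Rora, a nuclear receptor of the circadian clock, had 73.2, 64.7 and 61.7 CPM in HFD-337, 91.8, 95.7 and 78.6 in HFD-Res, 87.1, 87.2 and 98.8 in HFD-338 and 186, 204 and 183 in SD-NS. Rora fell by 0.45 on the log2 scale (SE 0.10, adjusted p = 0.00084) against HFD-338 and fell by 1.52 on the log2 scale (SE 0.10, adjusted p = 7.93e-10) against SD-NS. Esr1, estrogen receptor alpha, had 53.1, 61.6 and 49.3 CPM in HFD-Res and 18.1, 19.5 and 14.004 in HFD-337, and fell by 1.65 on the log2 scale (SE 0.18, adjusted p = 7.12e-07) against HFD-Res. Relative to the SD-NS mean, on the log2(CPM + 0.5) scale, Esr1 stood at 0.71, 0.92 and 0.60 in HFD-Res and -0.82, -0.71 and -1.18 in HFD-337. It was lowest in HFD-338, at -1.23, -1.18 and -1.56. Its rise against HFD-338 was called, but that call was lost under 11 of 13 alternatives. Mitf, a factor of pigment cell and lysosomal genes, had 3.54, 3.80 and 2.44 CPM in HFD-337 and 5.70, 4.82 and 6.28 in HFD-338, and fell by 0.75 on the log2 scale (SE 0.27, adjusted p = 0.0241). This call was lost with limma-voom and without replicate 27 of HFD-337 or replicate 17 or 19 of HFD-338.

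Some factors were high in HFD-337. Nfia, a nuclear factor I protein, had 137, 152 and 133 CPM in HFD-337, 99.6, 116 and 93.4 in HFD-Res, 66.1, 59.6 and 72.0 in HFD-338 and 114, 109 and 92.8 in SD-NS. The HFD-337 libraries were above all of these, and Nfia rose by 1.09 on the log2 scale (SE 0.13, adjusted p = 1.45e-06) against HFD-338. Its smaller rise against HFD-Res (a log2 change of 0.45 with SE 0.13 and adjusted p = 0.00695) was lost on recomputed TPM. Zfhx3, a large zinc finger homeobox factor, had 41.9, 37.8 and 44.9 CPM in HFD-337, 26.7, 22.9 and 27.7 in HFD-338 and 18.2, 22.3 and 16.4 in HFD-Res. It rose by 0.68 on the log2 scale (SE 0.13, adjusted p = 0.000161) against HFD-338 and rose by 1.14 on the log2 scale (SE 0.13, adjusted p = 1.71e-06) against HFD-Res.

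**Figure D5:**
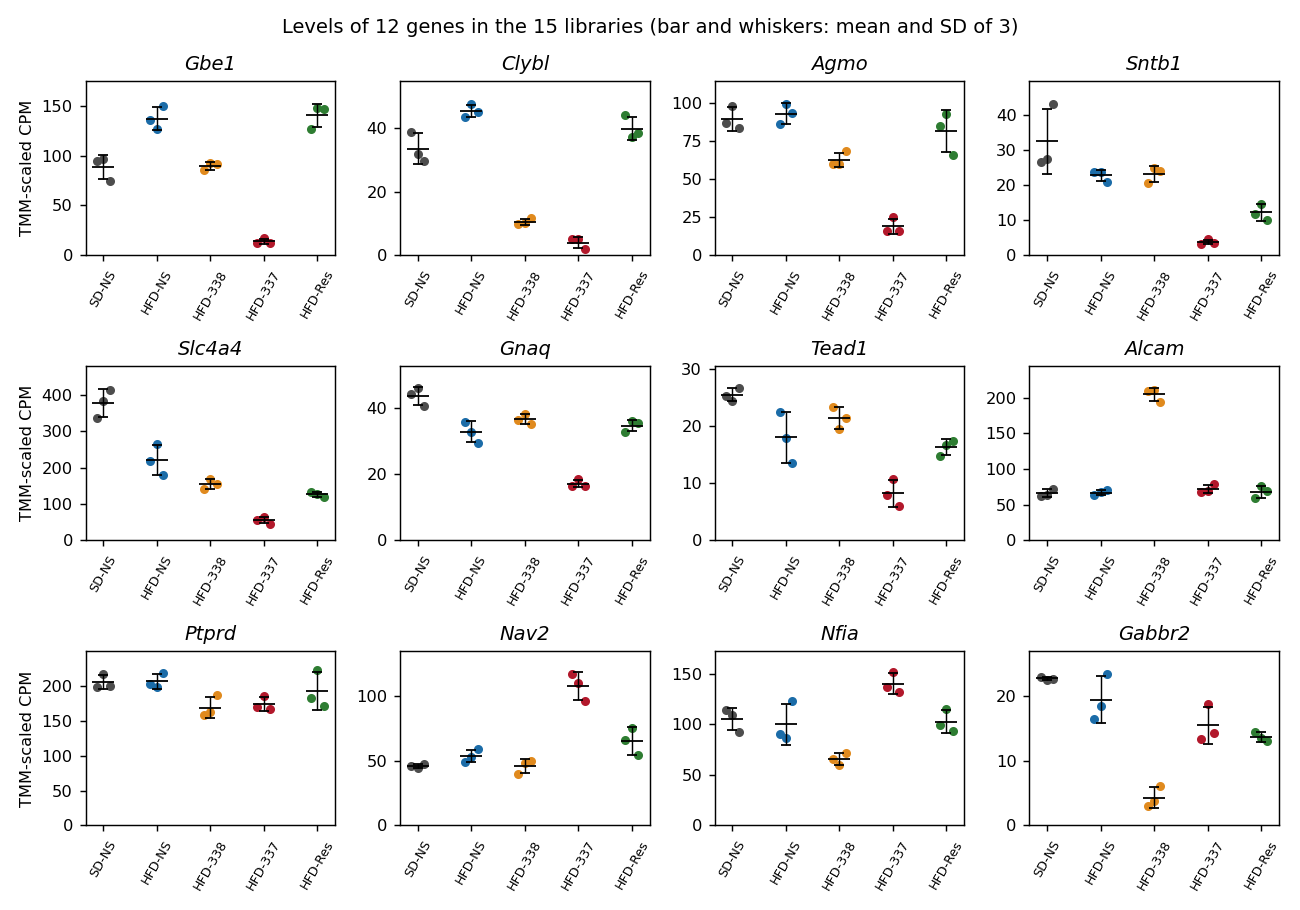
Levels of 12 members in TMM-scaled CPM (y axis, separate scale per gene) by group (x axis), with 1 point per library and the mean with its SD over 3 libraries. Gbe1, Clybl, Agmo, Sntb1, Slc4a4, Gnaq and Tead1 are lowest in HFD-337, Nav2 and Nfia are highest there, Alcam is high in HFD-338, Gabbr2 is low in HFD-338 and Ptprd varies little.

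Among 14 chromatin and cofactor genes, 7 fell and 0 rose against HFD-Res (median -0.35), 9 fell and 0 rose against SD-NS (-0.46), and 4 fell and 2 rose against HFD-338 (-0.02), where the 28.6% that fell was close to the share of all genes. Stag1, a cohesin subunit, had 21.7, 22.02 and 19.7 CPM in HFD-337, 26.8, 33.8 and 27.2 in HFD-338 and 45.6, 41.9 and 42.6 in HFD-Res. The groups did not overlap, and Stag1 fell by 0.47 on the log2 scale (SE 0.12, adjusted p = 0.00212) against HFD-338 and fell by 1.03 on the log2 scale (SE 0.12, adjusted p = 9.73e-07) against HFD-Res. Ncoa2, a coactivator of nuclear receptors, had 28.4, 29.5 and 30.8 CPM in HFD-337 and 39.1, 43.3 and 48.6 in HFD-338, and fell by 0.56 on the log2 scale (SE 0.12, adjusted p = 0.000583). Hdac4, a histone deacetylase, had 8.27, 9.91 and 9.13 CPM in HFD-337 and 7.64, 6.31 and 4.45 in HFD-338, and rose by 0.57 on the log2 scale (SE 0.22, adjusted p = 0.0297). This call was lost under 8 of 13 alternatives, among them DESeq2 and leaving out replicate 26 or 27 of HFD-337 or replicate 18 or 19 of HFD-338, and the change was 0.20 on recomputed TPM.

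Of 13 RNA-binding members, 4 fell and 1 rose against HFD-Res (-0.40), 7 fell and 2 rose against SD-NS (-0.64), and 4 fell and 2 rose against HFD-338 (-0.19). The 30.8% that fell against HFD-338 was again close to the share of all genes. Rbms3, which binds single-stranded RNA, was highest in HFD-338 (10.4, 12.5 and 10.3 CPM), and its 6.30, 4.03 and 3.25 CPM in HFD-337 overlapped the 8.79, 6.999 and 5.06 of SD-NS. Rbms3 fell by 1.301 on the log2 scale (SE 0.23, adjusted p = 0.00013) against HFD-338. Its fall against SD-NS was also called, but that call was lost under 7 of 13 alternatives. Stau2, which binds double-stranded RNA and takes part in its transport, had 2.56, 2.77 and 3.45 CPM in HFD-337 and 3.88, 6.18 and 6.15 in HFD-338, and fell by 0.89 on the log2 scale (SE 0.25, adjusted p = 0.00565). Fto, an RNA demethylase, had 9.06, 13.3 and 8.52 CPM in HFD-337, 20.4, 14.3 and 18.1 in HFD-338 and 22.9, 27.4 and 26.4 in HFD-Res. Fto fell by 0.74 on the log2 scale (SE 0.16, adjusted p = 0.00073) against HFD-338. Snd1, a Tudor domain nuclease, had 68.9, 71.8 and 72.9 CPM in HFD-337 and 43.6, 46.0 and 43.5 in HFD-338. Snd1 rose by 0.68 on the log2 scale (SE 0.08, adjusted p = 2.53e-06), with HFD-338 the lowest of the groups.

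Of 10 ubiquitin and protein turnover members, 6 fell and 1 rose against HFD-Res (median -0.83), 8 fell and 2 rose against SD-NS (-0.80), and 3 fell and 3 rose against HFD-338 (-0.04), where the share that fell was close to that of all genes. Fbxl17, an F-box protein of ubiquitin ligases, had 15.8, 17.1 and 14.004 CPM in HFD-337, 32.8, 29.9 and 30.8 in HFD-Res, 26.8, 26.7 and 27.6 in HFD-338 and 54.0, 58.9 and 65.8 in SD-NS. HFD-337 was lowest, HFD-338 and HFD-Res followed and SD-NS was highest, without overlap, and Fbxl17 fell by 0.78 on the log2 scale (SE 0.11, adjusted p = 1.2e-05) against HFD-338. Faf1, an adaptor of the segregase p97, had 21.1, 21.9 and 18.7 CPM in HFD-337 and 32.3, 31.2 and 36.1 in HFD-338, and fell by 0.68 on the log2 scale (SE 0.13, adjusted p = 0.00022). Rnf220, a ubiquitin ligase, had 15.6, 16.8 and 18.7 CPM in HFD-337, 11.6, 10.9 and 11.9 in HFD-338 and 15.6, 17.5 and 16.9 in HFD-Res. Rnf220 rose by 0.57 on the log2 scale (SE 0.13, adjusted p = 0.00084) against HFD-338, or by 0.25 on recomputed TPM, and its HFD-337 values overlapped those of HFD-Res. Vwa8, a mitochondrial ATPase, was low in both HFD-337 (158, 173 and 163 CPM) and HFD-338 (156, 145 and 167 CPM). It had 404, 343 and 339 CPM in HFD-Res and 375, 373 and 386 in SD-NS. Vwa8 fell by 1.14 on the log2 scale (SE 0.09, adjusted p = 3.34e-08) against HFD-Res and did not pass against HFD-338 (adjusted p = 0.497). Atg7, an enzyme of autophagosome formation, had 40.2, 43.9 and 45.9 CPM in HFD-337 and 31.01, 29.7 and 33.2 in HFD-338. Atg7 rose by 0.47 on the log2 scale (SE 0.12, adjusted p = 0.00209), but not on recomputed TPM.

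The lists of channels and receptors were small. Of 7 channel and transporter genes, 2 fell and 2 rose against HFD-Res (median -0.24), 2 fell and 1 rose against SD-NS (-0.09), and 1 fell and 3 rose against HFD-338 (0.09). Slc4a4, the sodium bicarbonate cotransporter, had 337, 384 and 414 CPM in SD-NS, 218, 264 and 180.5 in HFD-NS, 133, 128 and 119 in HFD-Res, 141, 168 and 156 in HFD-338 and 55.5, 63.4 and 46.1 in HFD-337. HFD-337 was below all other libraries, and Slc4a4 fell by 1.49 on the log2 scale (SE 0.14, adjusted p = 1e-07) against HFD-338 and fell by 2.77 on the log2 scale (SE 0.14, adjusted p = 4.36e-11) against SD-NS. Slc25a21, a mitochondrial carrier of oxodicarboxylates, was low in HFD-338 (2.05, 1.48 and 4.19 CPM) and HFD-337 (2.76, 3.11 and 2.03 CPM) and had 29.97, 22.3 and 18.2 CPM in HFD-Res. Slc25a21 fell by 3.10 on the log2 scale (SE 0.27, adjusted p = 7.08e-08) against HFD-Res. It shares 6.83% of its exon length with Pax9, so its reads may not all be its own. Of 5 receptor, ligand and adaptor genes, 2 fell and 1 rose against HFD-Res (-0.32), 1 fell and 2 rose against SD-NS (-0.35), and 1 fell and 0 rose against HFD-338 (-0.14). The gene that fell against HFD-338 was Peak1, a pseudokinase scaffold, with 12.8, 8.76 and 10.96 CPM in HFD-337 and 18.5, 19.7 and 16.2 in HFD-338 (a log2 change of -0.77 with SE 0.17 and adjusted p = 0.000679).

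Falls outnumbered rises among the 100 members on no list. Of these, 56 fell and 9 rose against HFD-Res (median -0.61), 53 fell and 7 rose against SD-NS (-0.59), and 52 fell and 11 rose against HFD-338 (-0.54). Pam, which amidates peptide hormones, had 17.7, 12.8 and 10.1 CPM in HFD-337, 73.5, 61.5 and 41.5 in HFD-338 and 28.9, 34.5 and 30.5 in HFD-Res. Pam fell by 2.12 on the log2 scale (SE 0.22, adjusted p = 1.12e-06) against HFD-338 and fell by 1.21 on the log2 scale (SE 0.23, adjusted p = 0.000404) against HFD-Res. Tmtc2, a membrane protein of the endoplasmic reticulum, had 2.95, 2.65 and 3.65 CPM in HFD-337, 10.1, 11.4 and 10.9 in HFD-338 and 30.8, 35.8 and 32.9 in SD-NS. Tmtc2 fell by 1.83 on the log2 scale (SE 0.18, adjusted p = 1.73e-07) against HFD-338. Ankrd44, an ankyrin repeat subunit of protein phosphatase 6, had 3.74, 1.498 and 1.83 CPM in HFD-337 and 9.12, 10.02 and 6.41 in HFD-338. Ankrd44 fell by 1.92 on the log2 scale (SE 0.30, adjusted p = 3.29e-05) against HFD-338, or by 1.24 on recomputed TPM. Pakap, an anchor of protein kinase A, had 8.86, 4.84 and 5.07 CPM in HFD-337, 26.2, 22.3 and 15.3 in HFD-338 and 22.7, 18.4 and 15.98 in HFD-Res. HFD-337 was below both groups, and Pakap fell by 1.80 on the log2 scale (SE 0.26, adjusted p = 3.31e-05) against HFD-338, or by 1.18 on recomputed TPM. Naaladl2, a relative of glutamate carboxypeptidase that spans 986 kb, had 1.97, 3.11 and 1.22 CPM in HFD-337 and 7.18, 6.80 and 10.9 in HFD-338. It fell by 1.87 on the log2 scale (SE 0.30, adjusted p = 4.25e-05), or by 1.02 on the recomputed log2(TPM + 1) scale. F8, coagulation factor VIII, which liver endothelium makes, had 3.15, 3.69 and 3.25 CPM in HFD-337, 6.61, 4.95 and 5.24 in HFD-338 and 17.98, 19.8 and 11.04 in HFD-Res. F8 fell by 2.22 on the log2 scale (SE 0.30, adjusted p = 1e-05) against HFD-Res, the comparison in which 11 of 12 sinusoidal endothelial markers also fell.

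Alcam, a cell adhesion molecule of activated leukocytes and epithelia, stood apart because of HFD-338. It had 210.2, 211 and 195 CPM there and 61.9, 64.0 and 72.6 in SD-NS, 63.1, 67.8 and 70.1 in HFD-NS, 59.5, 76.6 and 68.7 in HFD-Res and 68.5, 68.6 and 78.9 in HFD-337. Alcam fell by 1.51 on the log2 scale (SE 0.10, adjusted p = 3.18e-09) in HFD-337 against HFD-338 and did not pass against HFD-Res (adjusted p = 0.568) or SD-NS (adjusted p = 0.309). Lhfp, a tetraspan membrane protein, had 24.9, 21.5 and 11.4 CPM in HFD-338 and 6.10, 2.88 and 1.22 in HFD-337, and fell by 2.52 on the log2 scale (SE 0.37, adjusted p = 4.81e-05). Adamts2, a procollagen peptidase, had 22.5, 17.8 and 11.5 CPM in HFD-338 and 8.66, 3.11 and 2.84 in HFD-337, and fell by 1.88 on the log2 scale (SE 0.35, adjusted p = 0.00033), or by 2.51 without replicate 23 of HFD-337. In this comparison 8 of 12 stellate cell markers and 8 of 9 bile duct markers fell as well, and their part in the values of Alcam, Lhfp, Pam and Adamts2 was not tested.

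The largest rise against HFD-338 was that of Gabbr2, a subunit of the GABA-B receptor (chromosome 4, 46662318 to 46991714). It had 23.03, 22.6 and 22.8 CPM in SD-NS, 16.5, 18.5 and 23.5 in HFD-NS, 14.6, 13.6 and 13.1 in HFD-Res, 2.96, 3.83 and 6.15 in HFD-338 and 13.4, 18.8 and 14.4 in HFD-337. HFD-338 was below all other libraries. Gabbr2 rose by 1.88 on the log2 scale (SE 0.21, adjusted p = 1.01e-06), or by 1.17 on the recomputed log2(TPM + 1) scale, and its HFD-337 values overlapped those of HFD-Res. Mgmt, a DNA repair methyltransferase, had 12.01, 17.4 and 13.6 CPM in HFD-337, 8.44, 5.81 and 6.94 in HFD-338 and 3.99, 4.28 and 4.78 in SD-NS, and rose by 1.04 on the log2 scale (SE 0.21, adjusted p = 0.000373) against HFD-338. Aopep, an aminopeptidase, had 43.1, 34.3 and 30.6 CPM in HFD-337 and 19.95, 19.3 and 19.5 in HFD-338, and rose by 0.88 on the log2 scale (SE 0.16, adjusted p = 0.00013).

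The 9 members whose HFD-337 libraries were above all 9 libraries of HFD-338, HFD-Res and SD-NS were Nav2, Nfia, Zfhx3, Cdh2, Ppp3ca, Atg7, Atxn7l1, Rnaset2b and Cacnb4. Atxn7l1, a relative of ataxin 7, had 20.1, 26.05 and 35.3 CPM in HFD-337, 13.8, 15.1 and 15.4 in HFD-338 and 10.1, 11.5 and 12.8 in HFD-Res. Atxn7l1 rose by 0.87 on the log2 scale (SE 0.18, adjusted p = 0.000402) against HFD-338, and it shares 9.99% of its exon length with F730043M19Rik. Rnaset2b, a copy of the gene for an acid ribonuclease, had 25.2, 27.3 and 28.01 CPM in HFD-337 and 18.2, 16.3 and 14.8 in HFD-338. It shares 47.8% of its exon length with the near-identical Rnaset2a, so its value is uncertain. Cacnb4, a calcium channel subunit, shares 40.7% of its exon length with A430018G15Rik. It had 11.4, 6.69 and 7.10 CPM in HFD-337 and 5.02, 3.59 and 5.10 in HFD-338 (a log2 change of 0.86 with SE 0.23 and adjusted p = 0.00418). This rise was not called on recomputed TPM.

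The remaining counts involve the HFD-NS libraries that chose the members, so nothing is read from them. In HFD-337 against HFD-NS, 190 members were lower and 22 higher (median -0.58), where 22.8% and 24.4% of all genes were. In HFD-338 against HFD-NS, 122 were lower and 36 higher (-0.24), where 17.9% and 18.9% of all genes were. In HFD-Res against HFD-NS, 33 were lower and 19 higher (-0.03), where 6.74% and 6.22% of all genes were. In HFD-NS against SD-NS, 70 were lower and 42 higher (-0.09), where 16.1% and 12% of all genes were. These splits also moved with scaling. With total counts, 63.8% of members called in HFD-338 against HFD-NS were lower in place of 77.2%, 53.2% in HFD-Res against HFD-NS in place of 63.5%, and 38.9% in HFD-NS against SD-NS in place of 62.5%. With total counts the median of all genes in HFD-338 against HFD-NS was 0.17, in place of 0.00 with TMM scaling. In HFD-NS against SD-NS it was 0.12, in place of -0.02.

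Some members had levels far apart between these groups. Themis, a gene of T cell development, had 0.133, 0.389 and 1.69 CPM in SD-NS, 21.6, 22.1 and 15.5 in HFD-NS, 1.93, 0.69 and 0.872 in HFD-Res, 19.3, 22.8 and 16.5 in HFD-338 and 11.03, 4.84 and 3.65 in HFD-337. Summed lymphocyte markers were 9.72 to 16.3 CPM in SD-NS, 16.2 to 32.7 in HFD-NS, 40.8 to 79.0 in HFD-338, 13.02 to 28.9 in HFD-337 and 15.7 to 22.1 in HFD-Res. Esrrg, an orphan nuclear receptor, had 7.71, 7.45 and 9.70 CPM in HFD-NS, 0.57, 1.36 and 1.31 in HFD-338 and 17.98, 22.5 and 14.4 in HFD-Res. Ablim1, an actin-binding LIM protein, had 18.3, 20.1 and 22.03 CPM in HFD-NS and 43.4, 40.8 and 41.6 in SD-NS. Tanc2, a postsynaptic scaffold, had 5.02, 7.70 and 4.64 CPM in HFD-NS and 12.8, 14.8 and 10.4 in SD-NS.

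Some members are uncertain because reads were counted for every gene that they overlap. Mup2 and Mup15 belong to the major urinary proteins, pheromone carriers made in the liver from many near-identical copies, and share 69.3% and 70.9% of their exon length. Mup2 had 9575, 10249.7 and 9261 CPM in HFD-Res, 44.1, 35.3 and 104 in HFD-337, 23.7, 15.5 and 30.2 in HFD-338 and 67.6, 323 and 57.4 in SD-NS. Mup15 had 1777, 1957 and 1763 CPM in HFD-Res and 6.50, 7.61 and 8.73 in HFD-337. HFD-Res stood far above all other groups in both genes, and their annotated spans of 1222 kb and 1291 kb cross other copies of the family. Raet1a, Raet1b and Raet1c, ligands of the NKG2D receptor, share nearly all of their exons, and Raet1b had 2.997, 2.30 and 2.32 CPM in HFD-Res and 18.6, 22.02 and 21.3 in HFD-338. Cyp2c39, a cytochrome P450 of a cluster of close copies, had 61.4, 50.8 and 40.4 CPM in HFD-Res and 3.74, 5.07 and 0.406 in HFD-337. Gm37013, Gm38666 and Gm38667 had the same counts in all 15 libraries and stand for the same reads. With the 25 members that share 5% or more of their exon length left out, the shares of falls and rises in the 3 comparisons without HFD-NS stayed within 1.5 times of those given.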

How the data were processed

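The deposited counts are whole reads in exons summed per gene, per the file headers, without strand and with a read counted for every gene it overlaps. Tools in the submitters' processing notes are STAR 2.7.10b, featureCounts 2.0.1, Trim Galore 0.6.10 and Bowtie 1.3.1, with build mm39. A deposited TPM table, with 15 columns of per-sample values, was not used because its column names do not carry the replicate numbers of the labels.

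Groups came from the labels. Spans came from the first and last exon base in the count table. Counts were scaled by TMM, filtered with filterByExpr and fitted in 1 group-means model of all 15 libraries with edgeR 4.0.16 (robust quasi-likelihood test, R 4.3.3), with a common biological coefficient of variation of 0.134. P-values are two-sided and were adjusted by Benjamini-Hochberg over 13189 genes, with calls made at an adjusted p under 0.05. Levels are TMM-scaled CPM and compare 1 gene between groups, not genes with each other. The log2 fold changes are fitted values with the default prior count. Genes are named by rule: the 12 largest falls and 10 largest rises against HFD-338 among called members with no overlap of libraries and no predicted name, the 5 longest and 5 of highest HFD-NS level, up to 2 falls and 1 rise per functional list, the threshold neighbours, and the extremes of the HFD-NS comparisons.

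The members, lists and rules were chosen with earlier results of these data known, among them that long genes were lower in HFD-337. Clybl, Agmo, Pcca, Phkb, Lpp, Fto, Myo1d, Myo5b, Dock1, Dock8, Rora, Esr1, Zfhx3, Cdh2, Atg7, Ppp3ca, Plcb1, Plce1, Tmem135, Vti1a, Cyp2c39, Rapgef4, Rcan2, F8, Filip1l, Frmd4a, Upp2, Rnaset2b and the Raet1a and Raet1c copies were named after their values were seen. The procedure was tested on simulated data in which far fewer genes changed than were called here, with rises and falls balanced. That test could not probe the scaling of the libraries. Alternatives were DESeq2 1.42.0, limma-voom with quality weights (limma 3.58.1), RLE size factors, total count scaling, no low-count filter, a fit of the 2 groups compared, recomputed TPM (log2 of TPM plus 1, TPM of at least 1 in 3 libraries), other span and level floors, leaving out genes with shared exons, and leaving out each library. Start sites of GRCm38.p6 come from RefSeq tables. No mm39 genome was used.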

Additional observations from a re-analysis of the deposited data

How the results depend on the processing

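In each comparison without HFD-NS, the share of members that fell stayed above the share of all genes that fell as reported. The shares of members ran from 40.4% to 56.8% against HFD-338, 49.2% to 63.2% against HFD-Res and 50.5% to 64.0% against SD-NS over all alternatives, including leaving out each library. The share of all genes moved as well. Against HFD-338, 39.1% of all genes and 56.8% of members fell on recomputed TPM. With total count scaling 35.7% of all genes and 51.1% of members fell there. On recomputed TPM the share of members higher was 4.56% against HFD-338 and 4.26% against HFD-Res, where 2167 and 2423 of all 13635 genes were. It was 2.13% in HFD-337 against HFD-NS and 3.34% in HFD-Res against HFD-NS, where 2196 and 612 of all genes were higher. The share of members lower in HFD-NS against SD-NS was 9.73%, where 7.66% of all genes were. With total count scaling, 12.2% of members were higher in HFD-337 against SD-NS, where 4660 of all 13189 genes were. In HFD-Res against HFD-NS 8.81% of members were higher, where 999 of all genes were. In HFD-NS against SD-NS 11.2% of members were lower, where 8.63% of all genes were. TPM put the median of all genes at 0.12 in HFD-338 against HFD-NS, in place of 0.00 with TMM scaling. Leaving out each library in turn gave 6.99% to 9.73% of members higher in HFD-338 against HFD-NS, 3.65% to 5.17% in HFD-Res against HFD-NS and 7.60% to 11.6% in HFD-NS against SD-NS. The shares of all genes in those fits are not given, so nothing is read from these ranges. The causes were not tested. Over the alternatives of the named genes, 3734 values kept direction and call, 36 gained a call, 165 lost it and 0 reversed. No paired analysis was possible because the replicate numbers are shared by no groups. With 3 libraries a group, genes at a few CPM carry the widest errors.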

Other observations

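Some members varied widely within a group. Upp2, a uridine phosphorylase of the liver, had 80.0, 159 and 322 CPM in the HFD-NS libraries, 81.9, 59.2 and 161 in HFD-338 and 59.2, 57.5 and 45.8 in SD-NS. Adgrv1, a very large adhesion G protein-coupled receptor, had 33.1, 3.46 and 15.6 CPM in HFD-337, 19.7, 19.1 and 22.7 in HFD-Res and 1.33, 1.36 and 1.13 in SD-NS.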
